A study of Mus musculus with 3 samples.

Results

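Peaks of the nucleoporin Seh1 that lay in coding exons away from transcription start sites were examined in proliferating mouse neural stem cells. The members are the peaks whose deposited annotation begins with "exon" and whose distance to the nearest transcription start site (TSS) exceeds 1000 bp. They were 804 of 16113 peaks in the Seh1 list and 58 of 5314 peaks in the IgG list, or 862 of 21427 peaks in all. The cells were wild-type primary cultures from newborn (P0) cortex, kept in growth medium with EGF and bFGF. Chromatin was immunoprecipitated with an antibody to Seh1 or with non-specific IgG as the background control, and each group had 1 library. An input library, chromatin that was not precipitated, was not analysed here as a list of its own. All groups share the genotype and the treatment, and a primary culture of this kind may hold other cell types beside the stem cells. The lists carry positions only, so the labelled cell type could not be checked against marker levels. Every member was annotated to a transcript with an NM accession, the RefSeq class of protein-coding messenger RNAs. The annotation is made at the peak centre, and exon coordinates were not used here, so how much of a peak is translated sequence was not checked.

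Seh1, encoded by Seh1l, is part of the Nup107-160 scaffold that lines each nuclear pore, the channel of the nuclear envelope, and is also a subunit of GATOR2, which relays amino acid supply to mTORC1. Nucleoporins are known to contact chromatin at the pore and, for some of them, inside the nucleus. An exon is a part of a gene that is kept in the spliced RNA, and the coding exons hold the protein sequence. A ChIP-seq peak is an interval in which a caller found more reads than in the reference library. Its width is the only graded value in these lists, because the deposited score was 0 throughout, and width is not a measure of binding strength. With 1 library in a group no value has a replicate error. Intervals below are 95% exact binomial (Clopper-Pearson) and cover counting error only.

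To show what such a peak contains, the sequences of 6 Seh1 exon peaks are given, the 6 that a window of the RefSeq promoter table (GRCm38.p6, the assembly of mm10) happened to cover. They were chosen by that coverage alone and are not a sample of the 804. Each window belongs to the start of another annotated gene that lies within or against the host gene. By those starts the 6 peaks lie near a TSS, although the deposited annotation places them over 1000 bp from one. Their base content therefore need not be that of other exon peaks. The peaks lie in exon 6 of 15 of Nr2c2, a nuclear receptor (chr6:92154268-92154510), in exon 3 of 16 of Klc2, a kinesin light chain (chr19:5113898-5114147), in exon 4 of 10 of Pdzrn3, a ubiquitin ligase with PDZ domains (chr6:101172209-101172453), in exon 23 of 28 of Gemin5, an RNA-binding subunit of the SMN complex (chr11:58130016-58130258), in exon 19 of 30 of Ccdc88c, a regulator of Wnt signalling (chr12:100938863-100939161), and in exon 11 of 11 of Mef2c, a neuronal and muscle transcription factor (chr13:83662336-83662578). All are on the plus strand of mm10, and capitals mark the 20 bases around the peak centre. The Klc2, Pdzrn3 and Gemin5 peaks are shown whole. Of the Nr2c2 peak 223 of 243 bases are shown, of the Ccdc88c peak 279 of 299 and of the Mef2c peak 222 of 243.
Nr2c2: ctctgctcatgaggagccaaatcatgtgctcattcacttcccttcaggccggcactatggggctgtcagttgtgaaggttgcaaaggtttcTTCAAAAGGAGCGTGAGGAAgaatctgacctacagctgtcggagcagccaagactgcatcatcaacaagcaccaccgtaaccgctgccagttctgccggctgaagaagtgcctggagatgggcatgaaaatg
Klc2: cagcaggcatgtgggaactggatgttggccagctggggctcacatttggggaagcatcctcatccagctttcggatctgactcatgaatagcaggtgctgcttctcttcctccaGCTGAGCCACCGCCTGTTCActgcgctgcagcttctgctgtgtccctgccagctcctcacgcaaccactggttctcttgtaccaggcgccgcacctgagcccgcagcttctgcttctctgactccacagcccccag
Pdzrn3: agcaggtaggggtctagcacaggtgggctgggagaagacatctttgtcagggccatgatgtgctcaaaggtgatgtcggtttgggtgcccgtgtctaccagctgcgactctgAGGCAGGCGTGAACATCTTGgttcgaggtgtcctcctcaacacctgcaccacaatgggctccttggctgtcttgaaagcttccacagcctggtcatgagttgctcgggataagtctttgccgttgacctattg
Gemin5: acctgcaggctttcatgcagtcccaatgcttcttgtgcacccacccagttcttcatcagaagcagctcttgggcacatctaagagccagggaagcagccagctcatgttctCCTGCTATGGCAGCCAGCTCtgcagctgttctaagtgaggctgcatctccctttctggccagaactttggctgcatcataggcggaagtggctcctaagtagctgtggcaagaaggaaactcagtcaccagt
Ccdc88c: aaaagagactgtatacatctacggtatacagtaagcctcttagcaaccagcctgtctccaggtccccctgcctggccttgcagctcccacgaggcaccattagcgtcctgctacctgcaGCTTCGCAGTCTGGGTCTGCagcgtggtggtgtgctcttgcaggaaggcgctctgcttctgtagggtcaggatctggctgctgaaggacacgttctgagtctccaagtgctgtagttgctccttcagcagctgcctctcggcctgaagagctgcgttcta
Mef2c: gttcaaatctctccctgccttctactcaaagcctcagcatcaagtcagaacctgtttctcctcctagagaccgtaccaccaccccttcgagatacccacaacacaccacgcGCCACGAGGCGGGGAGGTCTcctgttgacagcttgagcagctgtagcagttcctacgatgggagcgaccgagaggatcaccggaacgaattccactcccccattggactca
Their G and C content ran from 52.5% in Nr2c2 to 59.6% in Klc2, beside a median of 52.7% over the 32851 windows of the promoter table. CG dinucleotides numbered 11 in the printed part of Mef2c, 9 in Ccdc88c, 7 each in Klc2 and Pdzrn3, 6 in Nr2c2 and 1 in Gemin5. The Mef2c peak is 1 of 3 Seh1 exon peaks that overlapped an IgG peak.

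Exon peaks took a larger share of the Seh1 list than of the IgG list. The share was 4.99% (interval 4.66 to 5.34%) for Seh1 and 1.09% (0.830 to 1.41%) for IgG, a ratio of 4.57 (95% interval 3.51 to 5.96; adjusted p = 5.3e-44 by Fisher's exact test, two-sided). The contrast was also present among peaks within transcripts. Of the peaks in exons or introns, exon peaks made up 11.95% (11.2 to 12.7%; 804 of 6728) for Seh1 and 3.16% (2.41 to 4.06%; 58 of 1837) for IgG (ratio 3.78, 2.91 to 4.92; adjusted p = 6.0e-34 by Fisher's exact test). P-values compare these 2 lists, not conditions, are adjusted over 25 comparisons by the Benjamini-Hochberg method, and are too small where neighbouring peaks depend on each other. The depth of each library is unknown.

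No Seh1 exon peak lay between 897 and 1030 bp from a TSS. Just inside it lay peaks in Actl9 (1030 bp), an actin-like gene of the testis, Wfdc10 (1054 bp) and Ccdc187 (1060 bp), and just outside lay Sprr2k (860 bp) and a peak of an unmatched transcript at 897 bp. The median distance of the Seh1 exon peaks to the nearest TSS was 19.1 kb (quartiles 8.23 and 47.9 kb), and the largest was 917 kb. The nearest TSS often belonged to another gene. Of the 803 Seh1 exon peaks whose transcript matched a gene in the RefSeq table, 326 (40.6%) lay closer to the TSS of a gene other than the host, and 19 of 57 IgG exon peaks did (33.3%). Read by nearest TSS, Seh1 exon peaks were given to 664 protein-coding genes (3.05% of 21779) and IgG exon peaks to 44 (0.202%). Genes are named here by the transcript whose exon holds the peak.

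Inner exons held most of the Seh1 exon peaks. Of the 804 peaks, 659 lay in an inner exon (82.0%, 79.1 to 84.6%), 137 in the last exon (17.0%, 14.5 to 19.8%), 4 in a first exon and 4 in the only exon of a transcript. If each exon of the transcripts hit were equally likely, 80.2% would be inner, 9.67% first and 9.67% last. With first exons counted, the inner share was near its value from the exon counts, first exons were below and last exons above. First exons start at a TSS, so the distance rule leaves few of them, and their deficit is set by that rule. The expected shares still count first exons, so they are too low for inner and last exons among the peaks that the rule keeps. Set against last exons alone, inner exons held fewer peaks than the exon counts give. The shares were 82.0% to 17.0% as observed and 80.2% to 9.67% from the counts. A full expectation without first exons was not computed, and exon lengths were not used here. Among the 62 Seh1 exon peaks within 1 kb of a TSS, which the rule leaves out, 26 lay in first exons and 24 in single exons. Within the inner exons no end of the transcript was favoured. Split by order into 3 equal parts, the first, middle and last inner exons held 213, 218 and 228 of the 659 peaks (32.3%, 33.1% and 34.6%), beside 33.0%, 34.0% and 33.0% from the exon counts.

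The IgG list had a different split, with 37 of 58 peaks in inner exons (63.8%, 50.1 to 76.0%) and 21 in last exons (36.2%, 24.0 to 49.9%). Inner exons were more frequent in the Seh1 list by a ratio of 1.28 (1.06 to 1.56; adjusted p = 0.0067), and last exons less frequent by a ratio of 0.471 (0.324 to 0.684; adjusted p = 0.0036, both by Fisher's exact test). Both differences rested on IgG peaks in regions dense in IgG peaks, defined as bins of 1 Mb with at least 20 of them. These bins held 13 of the 58 IgG exon peaks, of which 12 were in last exons, and 2 of the 804 Seh1 exon peaks. Without the bins the inner share was 82.0% for Seh1 and 80% for IgG (adjusted p = 0.91), and the last-exon share was 17.0% and 20% (adjusted p = 0.87, both by Fisher's exact test). For first and single exons the IgG counts were 0 of 58, which allows up to 5.17%, so a difference from the 0.498% of the Seh1 list was not detectable.

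**Figure D1:**
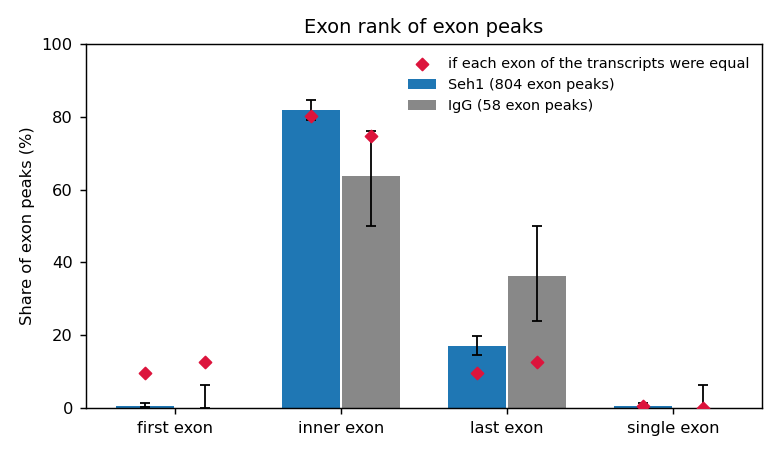
Share of exon peaks (%, vertical axis) by exon rank for the Seh1 list (804 peaks) and the IgG list (58 peaks), with 95% exact binomial intervals as bars and red diamonds for the share if each exon of the transcripts hit were equally likely. Inner exons hold 82.0% of Seh1 and 63.8% of IgG exon peaks, and the last-exon share is above its diamond in both lists. The diamonds count first exons, which the distance rule nearly removes.

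The first and single exon peaks can be named in full. First exons were hit in Gm7168 (308 bp wide, 1360 bp from the TSS), Brd8dc (254 bp), Pcdh18 (253 bp, 1062 bp from the TSS) and Zfp36l3 (243 bp). Pcdh18 is a protocadherin, a gene class whose large first exon encodes the extracellular cadherin repeats. Single exons were hit in Ubqln5 (527 bp wide), Actl9 (246 bp) and, with 2 peaks of 457 and 522 bp, Hspa1b, the inducible heat shock protein gene. Hspa1b has a near-identical neighbour, Hspa1a, so the copy that these peaks mark is uncertain. The widest last-exon peaks were those of Fgfbp1, a carrier of fibroblast growth factors (725 bp, exon 3 of 3), Rbak, a zinc finger repressor that binds the retinoblastoma protein (597 bp, exon 5 of 5), and Fam90a1a (536 bp, exon 5 of 5).

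The transcripts hit by Seh1 exon peaks had many exons. Their exon total had a median of 15.5 (quartiles 9 and 26, range 1 to 313), and that of the IgG exon peaks had a median of 10 (5.25 and 20, range 2 to 80). Transcripts with over 20 exons held 293 of 804 Seh1 exon peaks (36.4%, 33.1 to 39.9%) and 14 of 58 IgG exon peaks (24.1%, 13.9 to 37.2%), a difference of 12.3 points that did not pass the test (ratio 1.51, 0.948 to 2.40; adjusted p = 0.15 by Fisher's exact test). Transcripts with up to 5 exons held 14.4% and 25.9% (adjusted p = 0.087 by Fisher's exact test). Without the bins dense in IgG peaks the shares were 36.5% and 31.1% for over 20 exons (adjusted p = 0.87) and 14.3% and 15.6% for up to 5 exons (adjusted p = 1, both by Fisher's exact test). Within the Seh1 list the difference from introns was larger than counting error. Intron peaks lay in transcripts of over 20 exons in 27.3% of cases (26.1 to 28.4%; 1616 of 5924), a ratio of 1.34 (1.21 to 1.48; adjusted p = 1.2e-06 by Fisher's exact test). In the IgG list the same shares were 24.1% for exon and 25.4% for intron peaks (ratio 0.950, 0.598 to 1.51). Whether the exon-to-intron contrast differed between the lists was not tested.

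The 5 transcripts with the most exons among the Seh1 exon peaks all encode giant proteins of muscle or of the nuclear envelope. Ttn, the sarcomere spring titin, held a peak of 249 bp in exon 307 of 313. Neb, nebulin of the thin filament, held 243 bp in exon 130 of 157. Syne1 and Syne2, the nesprins that tie the nuclear envelope to the cytoskeleton, held 335 bp in exon 94 of 146 and, with 2 peaks, 243 bp each in exons 27 and 52 of 116. Ryr1, the calcium release channel of skeletal muscle, held 319 bp in exon 23 of 106.

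Seh1 exon peaks were about as wide as other Seh1 peaks. Their median was 269 bp (quartiles 245 and 318, range 243 to 1160), beside 264 bp in introns, 267 bp in intergenic sequence and 271.5 bp at gene ends, which are the classes of transcription termination sites and 3′ UTRs. Fewer of them had the minimum width of 243 bp. This share was 22.3% (19.4 to 25.3%) for exon, 28.3% (27.2 to 29.5%) for intron, 27.2% (26.2 to 28.1%) for intergenic and 24.5% (19.9 to 29.7%) for gene-end peaks. The difference passed for introns (ratio 0.786, 0.686 to 0.899; adjusted p = 0.0016) and for intergenic sequence (0.820, 0.717 to 0.937; adjusted p = 0.0096), and not for gene ends (0.908, 0.719 to 1.15; adjusted p = 0.71, all by Fisher's exact test). The share of peaks of 400 bp or more was 9.33% in exons, 8.88% in introns, 9.18% in intergenic sequence and 8.28% at gene ends, and none of these differences passed (ratios of exon to the others 1.05, 1.02 and 1.13, with intervals from 0.735 to 1.73).

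IgG exon peaks had a wider spread of widths, with a median of 295.5 bp (quartiles 236 and 368.75, range 236 to 1018). At the minimum width of its own list stood 32.8% of IgG (21.0 to 46.3%) and 22.3% of Seh1 exon peaks (adjusted p = 0.16), and without the bins dense in IgG peaks 42.2% and 22.3% (adjusted p = 0.015, both by Fisher's exact test). Of the IgG exon peaks 22.4% (12.5 to 35.3%) reached 400 bp, against 9.33% of Seh1 exon peaks (ratio of Seh1 to IgG 0.416, 0.246 to 0.704; adjusted p = 0.016 by Fisher's exact test). Of the 13 wide IgG peaks 7 lay in the bins dense in IgG peaks. Without these bins the shares were 9.35% and 13.3% (adjusted p = 0.87 by Fisher's exact test). Other IgG classes also stood above the Seh1 shares given before. At the minimum width were 40.2% of IgG intron, 37.2% of intergenic and 33.0% of gene-end peaks. The shares of 400 bp or more in these IgG classes were 11.1%, 14.4% and 19.4%. The width contrast between the lists was thus not particular to exon peaks.

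**Figure D2:**
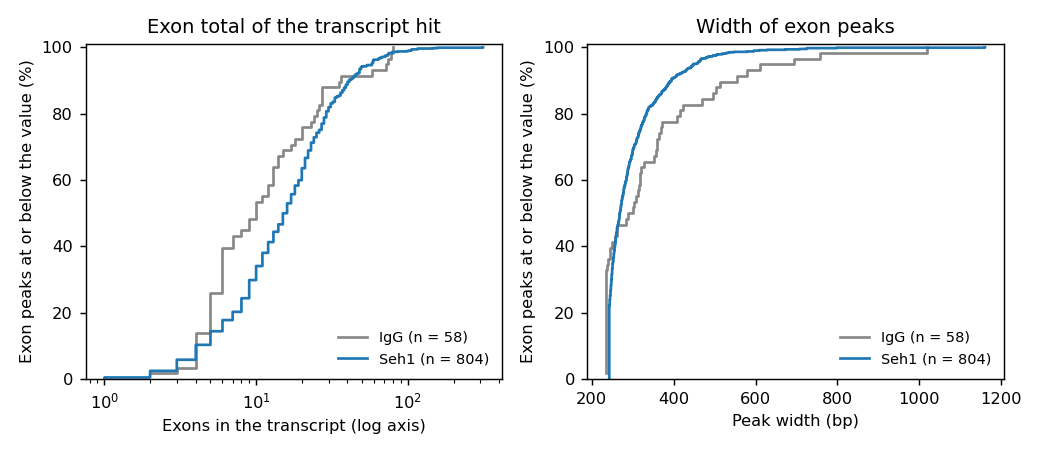
Cumulative share of exon peaks (%, vertical axes) by exon total of the transcript hit (left, log axis) and by peak width in bp (right) for the Seh1 list (n = 804) and the IgG list (n = 58). The median exon total is 15.5 for Seh1 and 10 for IgG. No class of exon total differed past the threshold in the main comparisons. The IgG curve has more peaks of 400 bp or more (22.4% against 9.33%).

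Exon peaks of both lists lay towards the ends of their host genes. For 628 Seh1 exon peaks the strand of the host gene was known and the centre lay within it. The median position was 74.3% of the way from the start to the end of the gene, and 49.2% lay in the last of 4 equal parts and 7.32% in the first. The 4486 Seh1 intron peaks with a position had a median of 51.0%, with 24.1% in the last part. The IgG list showed the same pattern, with a median of 76.1% for 49 exon peaks and 49.3% for 1300 intron peaks. The positions of all exons were not used here, so how much of this follows from where exons lie was not tested. The distance rule left out 62 Seh1 and 0 IgG exon peaks near a TSS, and intron peaks had no such limit. How far that rule lowers the share in the first part was not tested.

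**Figure D3:**
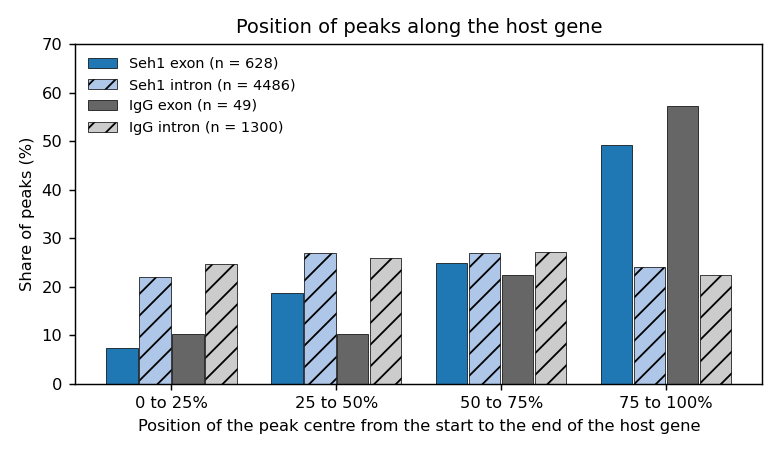
Share of peaks (%, vertical axis) in each of 4 equal parts of the host gene, counted from its start to its end, for exon and intron peaks of the Seh1 and IgG lists (n in the legend; peaks without a strand for the host are left out). The last part holds 49.2% of Seh1 and 57.1% of IgG exon peaks, and 24.1% and 22.4% of intron peaks. The distance rule applies to exon peaks only.

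The 803 matched Seh1 exon peaks fell in 739 protein-coding genes, which is 3.39% of the 21779 such genes in the table, and the 57 matched IgG exon peaks fell in 54 genes, or 0.248%. Host genes were long, with a median of 53.3 kb for Seh1 and 47.1 kb for IgG, beside 17.2 kb over all protein-coding genes. The share of genes with a Seh1 exon peak rose with gene length, from 0.587% in the shortest of 4 equal groups of genes (up to 5.71 kb) through 1.93% and 3.62% to 7.44% in the longest (over 44.5 kb). In the IgG list these shares were 0.0184%, 0.110%, 0.312% and 0.551%. Peaks were spread widely, since 686 of the 739 Seh1 host genes held 1 exon peak and 53 held 2 or more. Among chromosomes, exon peaks made up from 3.73% (chromosome 13) to 6.78% (chromosome 17) of the Seh1 peaks of an autosome or chromosome X, and 0 of the 126 peaks on chromosome Y.

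A further look was given to the 6 host genes with 3 or more Seh1 exon peaks. Apc, the scaffold that marks beta-catenin for destruction in Wnt signalling, held 5. Of these, 1 of 244 bp lay in exon 2 and 4 of 249 to 363 bp lay in exon 16 of 16, the closest pair 857 bp apart. Exon 16 is the last exon and encodes most of the protein. Hrnr, a repeat-rich protein of the skin barrier, held 4, of which 3 lay in exon 3 and 1 in exon 4 of 4. The closest Hrnr centres were 442 bp apart, and Hrnr consists of internal repeats, so the repeat unit that reads came from is uncertain.

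In the other 4 genes every peak lay in an exon of its own. Kmt2c, a histone H3 lysine 4 methyltransferase, held 4 peaks, a wide one of 547 bp in exon 52 of 59 and narrower ones of 243, 254 and 243 bp in exons 19, 15 and 8. Nf1, the Ras GTPase-activating protein neurofibromin, held 4, with 431 bp in exon 21 and 243 bp each in exons 4, 42 and 47 of 58. Muc5b, a gel-forming mucin, held 3, of 387, 282 and 275 bp in exons 18, 31 and 36 of 49. Reln, the secreted guide of cortical layering, held 3, of 297, 256 and 243 bp in exons 45, 34 and 26 of 64. In Apc, Kmt2c, Muc5b and Nf1 all Seh1 peaks within the gene were exon peaks (5, 4, 3 and 4). Kmt2c spans 227 kb and Nf1 242 kb. Over all Seh1 peaks in exons or introns, exon peaks made up 11.95%. The genes were picked for their exon peaks, which by itself raises the exon share within them. Reln, at 460 kb, held 4 Seh1 peaks in all and Hrnr 5. IgG peaks within these genes numbered 2 in Nf1, 1 in Kmt2c and 0 in the others.

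Several peaks in 1 exon were rare. In the Seh1 list 17 peaks shared an exon with another, in 7 transcripts. Beside Apc, Hrnr and Hspa1b these included Crebbp, the CBP acetyltransferase, with 314 and 334 bp in exon 31 of 31, Lrp12 with 261 and 289 bp in exon 4 of 6, and Tro, or trophinin, with 243 and 269 bp in exon 12 of 13. Crebbp, Lrp12 and Tro were named after their values were seen.

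**Figure D4:**
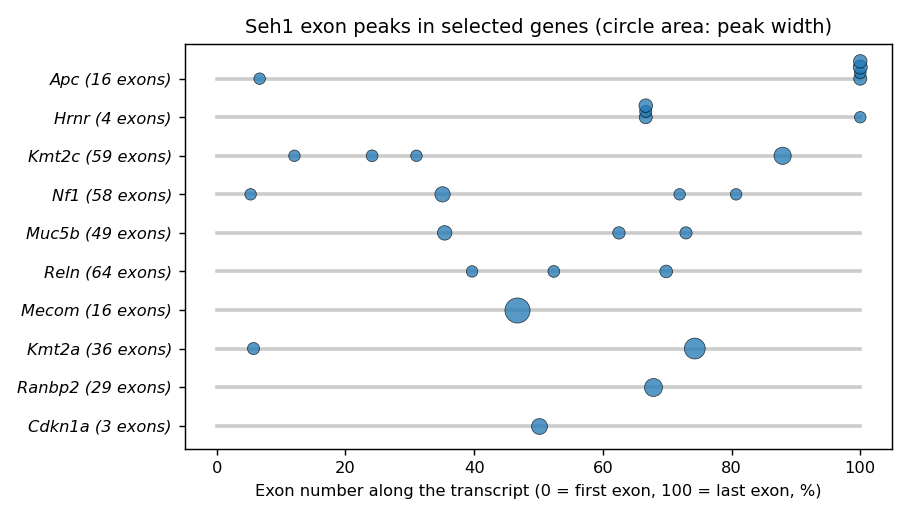
Seh1 exon peaks of the 6 genes with 3 or more and of Mecom, Kmt2a, Ranbp2 and Cdkn1a, placed by exon number (horizontal axis, 0 for the first and 100 for the last exon of the transcript, %); circle area gives peak width and peaks in the same exon are stacked. Apc has 4 stacked peaks in its last exon, and the 4 peaks of Kmt2c and of Nf1 lie in separate exons.

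The widest exon peak lay in Mecom, which encodes the zinc finger regulator Evi1 (1160 bp, exon 8 of 16, chr3:29979619-29980778). It was followed by Kmt2a, the MLL1 methyltransferase (799 bp, exon 27 of 36, chr9:44819481-44820279), which held a second peak of 271 bp in exon 3. Next came Pak7, a p21-activated kinase of neurons (726 bp, exon 6 of 11, chr2:136100800-136101525), with a second peak of 243 bp in exon 5. Fgfbp1 had 725 bp and the stomach mucin gene Muc6 had 707 bp (exon 31 of 33). Ston1, an endocytic adaptor, had 629 bp (exon 2 of 4). Ces5a, a carboxylesterase, had 609 bp (exon 12 of 13), Rbak had 597 bp, and Ranbp2, the giant nucleoporin of the cytoplasmic filaments, had 595 bp (exon 20 of 29, chr10:58479800-58480394). For 3 of the 10 widest the nearest TSS belonged to another gene, so that a list by nearest TSS shows Ttc36, Lamp5 and Ccdc138 in place of Kmt2a, Pak7 and Ranbp2.

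Peaks of the 2 libraries rarely met, and exon peaks were like the others in this. Of the 804 Seh1 exon peaks 3 overlapped an IgG peak of any class (0.373%), in Mef2c, Ldc1 and Gm21119, as did 60 of all 16113 Seh1 peaks (0.372%), and 5 had a centre within 1 kb of an IgG centre. Both lists had exon peaks in 3 genes, among 739 Seh1 and 54 IgG host genes. Of all protein-coding genes 3.39% held a Seh1 exon peak, and of the longest of 4 equal groups 7.44% did. Whether 3 shared genes exceed such shares was not tested. In Mef2c the Seh1 and the IgG peak both lay in exon 11 of 11 and shared 220 bp, with centres 86 bp apart. In Pik3ca, the catalytic subunit of PI3 kinase, the Seh1 peak of 359 bp lay in exon 20 of 20 and the IgG peak of 236 bp in exon 11, 12.7 kb away. In Fras1, an extracellular matrix protein, Seh1 peaks of 280 and 391 bp lay in exons 19 and 43 of 74 and the IgG peak of 236 bp in exon 14, with centres 41.9 and 136 kb apart.

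The IgG exon peaks had a gene makeup of their own. Zinc finger genes named Zfp held 12 of the 58, in 9 genes, all on chromosome 4 between 145.7 and 147.8 Mb. The widest were in Zfp534 (1018 bp, exon 4 of 4), Zfp980 (757 bp, exon 3 of 5) and Zfp987 (694 bp, exon 4 of 4), and 11 of the 12 lay in last exons, the exon that encodes the zinc finger array in this gene class. In the same span the Seh1 list held 54 peaks of any class, of which 0 were exon peaks, beside 4.99% over the whole list, and the IgG list held 174. Among so few Seh1 peaks a count of 0 does not set this span apart from the whole list. The next widest IgG exon peaks lay in Vps13a, a lipid transfer protein (611 bp, exon 59 of 72), and 2410141K09Rik (578 bp, exon 4 of 4). The Zfp genes of this span are recent copies of each other, and the sources used here do not say whether multiply mapped reads were kept, so the copy marked is uncertain.

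The study asks how Seh1 acts on Cdkn1a in these cells, and both Cdkn1a and Seh1l held an exon peak. Cdkn1a, the gene of the CDK inhibitor p21, held 466 bp in exon 2 of 3 (chr17:29098401-29098866), wider than 95.7% of Seh1 peaks. It was 1 of 33 p53 targets and CDK inhibitors, and the list had no other with a Seh1 exon peak (3.03%, 0.0767 to 15.8%), beside 3.39% over all protein-coding genes. Of 40 cell cycle genes 1 was hit, Mcm5 of the replicative helicase (295 bp, exon 16 of 17). Of 44 neural stem cell genes 1 was hit, Numbl, a regulator of Notch and of asymmetric division (244 bp, exon 8 of 10), and of 40 neuronal differentiation genes 1, Reln. No gene of 28 in the astrocyte and oligodendrocyte list was hit. All these shares lie near the background. In the IgG list, where the background was 0.248%, none of these 5 lists had a gene with an exon peak.

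In the next 3 lists the shares were above the background of 3.39%, with intervals that reached it or nearly so. Nuclear pore and GATOR2 genes had 4 of 33 (12.1%, 3.40 to 28.2%), namely Ranbp2 with 595 bp, Nup153 of the nuclear basket (246 bp, exon 19 of 22), Nup210, a membrane nucleoporin (243 bp, exon 26 of 40), and Seh1l itself (243 bp, exon 4 of 8). Counted by nearest TSS it was 2 of the 33. In the IgG list 1 of these 33 was hit, Nup155 (3.03%, beside an IgG background of 0.248%). Chromatin repressor genes had 4 of 40 (10%, 2.79 to 23.7%). They were Ncor1, a co-repressor of nuclear receptors (430 bp, exon 36 of 45), Dnmt3a, a DNA methyltransferase (330 bp, exon 14 of 18), Setdb1, a histone H3 lysine 9 methyltransferase (268 bp, exon 13 of 22), and Hdac4, a class II histone deacetylase, with 2 peaks of 243 bp in exons 6 and 8 of 27. Median gene length was 42.1 kb in the nuclear pore list and 32.6 kb in the repressor list, against 11.5 kb in the p53 list, and the part of length in these shares was not tested. Of 24 markers of microglia, endothelium and fibroblasts 2 were hit (8.33%, 1.03 to 27.0%), Itgam (269 bp, exon 14 of 30) and Acta2 (243 bp, exon 7 of 9). In the IgG list 0 of the 24 were hit. A peak in a marker gene does not show that its cell type was in the culture.

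Giant proteins with many exons had the highest share, with 16 of 53 genes (30.2%, 18.3 to 44.3%) and a median gene length of 182 kb. Counted by the gene of the nearest TSS, 7 of the 53 were hit. Beside those named above, a wide peak lay in Fat1, an atypical cadherin (443 bp, exon 21 of 26). In the IgG list 3 of the 53 were hit, Herc1, Vps13a and Xirp2 (5.66%, 1.18 to 15.7%). Both shares lay above the background of their own list, 3.39% for Seh1 and 0.248% for IgG, so this excess was not particular to Seh1. Extracellular matrix and integrin genes had 0 of 144 for IgG (interval up to 2.53%). With a background of 0.248% in that list, a count of 0 does not set the lists apart. For Seh1 the matrix and integrin genes had 20 of 144 (13.9%, 8.69 to 20.6%), or 13 by nearest TSS. Among them were Adamts13, the protease of von Willebrand factor, with 432 bp in exon 3 and 260 bp in exon 10 of 29, Adamts9 (407 bp), Adamtsl1 (394 bp), Col10a1, a collagen of growth plate cartilage (333 bp, exon 3 of 3), and Itgb2l (315 bp). Motor protein genes had 11 of 103 (10.7%, 5.45 to 18.3%), with Myh2, a muscle myosin (361 bp, exon 3 of 40), Myo7b (318 bp), and the axonemal dyneins Dnah10 (304 bp) and Dnah5 (288 and 248 bp) among the widest. Counted by nearest TSS it was 8 of the 103. The IgG list hit 1 of them, Kif27 (0.971%, 0.0246 to 5.29%), also above its background of 0.248%. The motor gene excess was thus not shown to be particular to Seh1.

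In the other families with several hits the shares were nearer the background of 3.39%. Solute carriers had 18 of 389 (4.63%, 2.77 to 7.21%), led by Slc26a5, the prestin motor of outer hair cells (400 bp, exon 8 of 18), Slc13a5 (315 bp), Slc5a4b (311 bp), Slc2a5 (303 bp) and Slc25a12 (292 bp). Ion channels had 9 of 171 (5.26%, 2.43 to 9.76%), among them Kcnmb1 (495 bp, exon 4 of 4), Kcnb2 (362 bp, exon 3 of 3), Trpv1 (282 bp) and Scn3a (270 bp). In the IgG list 2 of the 171 were hit, Clcn3 and Trpa1 (1.17%, 0.142 to 4.16%), beside an IgG background of 0.248%. Cytochrome P450 and UGT genes had 6 of 121, led by Cyp2d9 with 390 bp, and serpin and protease genes had 7 of 158, led by Serpina1c with 300 bp and Klk5 with 297 bp. Many of the latter genes have close copies. ABC transporters had 2 of 46 (Abcc1 and Abca4), and keratins had 2 of 109 (Krt2 with 400 bp and Krt9 with 280 bp).

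In 4 further families the counts were low, and the olfactory and vomeronasal family was the 1 of them whose interval lay below the background of 3.39%. Zfp zinc finger genes had 7 of 397 for Seh1 (1.76%, 0.712 to 3.60%) and 9 for IgG (2.27%). The widest Seh1 peaks of this family were in Zfp819 (391 bp, exon 4 of 4), Zfp235 (360 bp, with a second of 269 bp), Zfp637 (354 bp, exon 3 of 3), Zfp106 (326 bp, exon 21 of 22) and Zfp879 (243 bp). Olfactory and vomeronasal receptors had 1 of 1461 (0.0684%, 0.00173 to 0.381%), Olfr286 with 370 bp, and their median gene length was 0.951 kb. A gene shorter than 1000 bp has no room for a peak centre over 1000 bp from its own TSS. The distance rule itself therefore lowers the share of this family. In the IgG list 3 of the 1461 were hit (0.205%), beside an IgG background of 0.248%. Cadherins and protocadherins had 1 of 97, Pcdh18 (1.03%, 0.0261 to 5.61%), and adhesion G protein-coupled receptors had 0 of 27 (interval up to 12.8%).

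**Figure D5:**
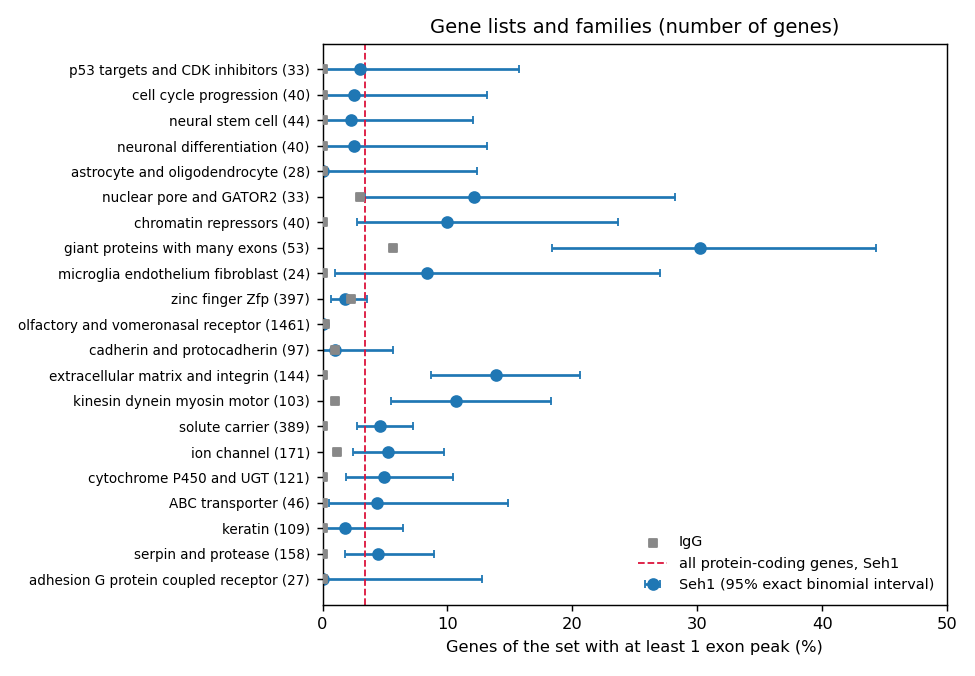
Share of the genes of each list or family with at least 1 exon peak over 1 kb from a TSS (%, horizontal axis) in the Seh1 list (circles, 95% exact binomial interval) and the IgG list (squares), with the number of genes in brackets. The dashed line is the 3.39% of all protein-coding genes in the Seh1 list; giant proteins (30.2%) and matrix and integrin genes (13.9%) lie to the right of it.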

How the data were processed

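Positions and annotations of ChIP-seq peaks were taken from 1 deposited list per library (Seh1, IgG). Annotation was by HOMER on mm10, per the file headers. The submitters' processing notes name Bowtie2 and HOMER, with no version, and list human builds where the headers say mm10. The sources used here do not give the peak caller, its threshold, the filters on reads or the read depth. Peaks were deposited with a score of 0 throughout, which was not used.

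Exon number and total were read from the annotation text, and the transcript was matched to RefSeq (GRCm38.p6) for the host gene. Genes starting below 3000000 bp on chromosomes other than Y were left out of the background, which left 21779 protein-coding genes. Shares of peaks were compared by Fisher's exact test (scipy 1.17.1), two-sided, with Benjamini-Hochberg adjustment over 25 comparisons at 0.05. Of these, 3 were added after the data were seen (exon among exon and intron peaks, and over 20 exons against introns in each list). Ratio intervals were computed on the log scale. A limit for a count of 0 was set by 3 counts. Code was tested on simulated data. Gene lists (9 lists, 335 genes, 2 matched by an older symbol) and 12 symbol families were described by counts alone.

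The members and lists were chosen with earlier results of these data known. Genes were named by a rule: Cdkn1a and Seh1l; the 10 widest Seh1 and 5 widest IgG exon peaks; genes with 3 or more Seh1 exon peaks; genes of both lists; the 3 widest of each of first, last and single exons; the 5 transcripts with the most exons; and up to 5 genes per list or family. Some genes that the rule names are not reported here. Alternatives changed the distance limit, widths, overlaps, dense bins and counting per transcript, where the widest exon peak of each transcript was kept.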

Additional observations from a re-analysis of the deposited data

Results flagged for a closer look

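The rule on distance leaves out exon peaks within 1 kb of a TSS, which no comparison here used. In the Seh1 list these numbered 62 of 16113 peaks (0.385%, 95% exact binomial interval 0.295 to 0.493%) and in the IgG control 0 of 5314, which allows a share of up to 0.0565%. They drew attention because the Seh1 count lies above what the control allows. Of the 62, 26 were in first exons, 24 in single exons, 9 in inner and 3 in last exons.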

How the results depend on the processing

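Differences below are in percentage points, first class minus second. The higher share of exon peaks in the Seh1 list kept its direction and passed under each alternative tried. So did the narrow-peak differences from introns and intergenic sequence wherever they could be computed. Counting 1 peak per transcript kept the widest exon peak of each transcript and left intron and intergenic peaks whole. That setting favours wider exon peaks by its rule, so it is no check on widths. Without the bins dense in IgG peaks, 3 differences between Seh1 and IgG exon peaks no longer passed: inner exons (2.04), last exons (-3.04) and widths of 400 bp or more (-3.98). The minimum-width difference then passed (-19.9). With these bins left out IgG exon peaks have 45 members, so power is lower too. With a limit of 2000 bp the width difference no longer passed (-10.5, adjusted p = 0.051 by Fisher's exact test), and transcripts of up to 5 exons did (-13.6), as they did without minimum-width peaks (-16.4). Without the dense bins that difference was -1.22, and that for over 20 exons fell from 12.3 to 5.42. Of the genes in the 9 lists, 30 had a Seh1 exon peak, 20 by nearest TSS and 21 without minimum-width peaks. Wide IgG exon peaks exceeded IgG intron peaks past the threshold with 1 peak per transcript (12.5), without overlapping peaks (12.3) and with a limit of 500 bp for wide (9.80). The first of these kept the widest exon peak of each transcript and all intron peaks, so its pass tells nothing about width. Differences that never passed changed sign as follows. The share with 6 to 20 exons became 1.08 (2000 bp limit), 1.52 (no minimum-width peaks) and 1.51 (1 per transcript). Wide Seh1 exon peaks against introns became -0.39 (no minimum-width peaks) and -0.045 (500 bp), against intergenic peaks -0.017 (2000 bp limit), -0.60 (no minimum-width peaks) and -0.30 (500 bp), and against gene ends -0.70 (500 bp). For IgG exon peaks, minimum width against gene ends became 0.92 (2000 bp limit), 1.54 (1 per transcript) and 1.72 (no dense bins), against intergenic peaks 0.53 (no dense bins), and over 20 exons against introns 0.047 (1 per transcript) and 3.67 (no dense bins). The cause of these changes was not tested. Overlaps with IgG peaks numbered 3, and 5 with centres within 1 kb. No paired analysis was possible because each group has 1 library. Depth is unknown, and 58 IgG exon peaks limit every comparison with them.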

Other observations

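Other host genes, picked after the list was seen and therefore without a count or a test, include the following regulators of chromatin. The histone demethylase genes Kdm5a, Kdm6a and Kdm5c held Seh1 exon peaks of 487 bp (exon 23 of 28), 465 bp (exon 17 of 29) and 416 bp (exon 23 of 26). The acetyltransferase gene Ep300 held 366 bp in exon 2 of 31, beside the pair in the last exon of its paralog Crebbp. Arid1a, a subunit of the BAF remodeller, held 434 bp in exon 18 of 20, and Pbrm1 of the related PBAF complex 297 bp in exon 20 of 33. Hira, a chaperone of histone H3.3, held 386 bp in exon 19 of 25.

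Genes that act on growth factor and nutrient signalling were also hosts. The insulin receptor gene Insr held 323 bp in exon 21 and 284 bp in exon 13 of 21, and Sos1, an activator of Ras, held 459 bp in exon 22 and 322 bp in exon 10 of 22. Depdc5, a subunit of GATOR1 on which GATOR2 acts, held 268 bp in exon 21 of 43, Tsc2 held 247 bp in exon 18 of 40 and Rictor of mTORC2 held 243 bp in exon 34 of 38. Axon guidance genes included Sema5b with 422 bp in exon 2 and 363 bp in exon 7 of 22, Epha7 with 327 bp in exon 5 of 10, and Slit3 with 266 bp in exon 19 of 36. Long genes are more often hit, as the shares by gene length show, and these groups were not tested against that.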
